A study of Mus musculus with 8 samples.

Results

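The genes described here are the machinery that makes and loads peptides for MHC class I in mouse CD8+ T cells. They were chosen by name, as the rows of a normalized array workbook whose gene symbol equals Tap1, Tap2, Tapbp, Psmb8, Psmb9, Psmb10, B2m, Erap1, Nlrc5 or H2-K1, and their values on every array were compared over 4 treatments. Of the 10 names, 9 had a transcript cluster (the array's unit of 1 gene, here 10 probes each) of their own, out of 21160 genes with such a cluster. All 9 were among the 12696 genes that passed a lower limit on mean level and were tested. Nlrc5 was read only by a cluster that it shares with the microRNA gene Mir7072, so the rule did not take it and its values are given apart.

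Female mouse CD8+ T cells, naive at the start and stimulated in culture, were exposed for 48 h (day 2) to an agonist of 1 of the PPAR nuclear receptors, which bind fatty acids and switch on genes of lipid metabolism. The 4 groups were a PPARβ agonist, a PPARα agonist, a PPARγ agonist and DMSO, with 2 Clariom S Mouse arrays each, 8 in all. What the groups share is the stimulation, and the sources used here do not give the compounds, their doses, the mouse strain or the number of animals. The sample titles carry 2 prefixes, each on 1 array of every treatment, and the 4 arrays of a prefix are called set 1 and set 2; the labels do not say what a prefix marks. Nothing in the labels ties the arrays of a group to separate animals or cultures, so each p-value reflects just the array-to-array spread, part of which may be technical.

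CD8 T cell markers were high on every array. Cd8b1 read 17.02 to 17.28 and Cd8a 16.48 to 16.73 over the arrays, on a scale whose array medians lay between 5.64 and 5.72. Of 2 CD4 T cell markers 2 lay above the lower limit of the tested genes, with Cd4 at 7.46 to 9.15. So did 3 of the 4 class II presentation genes with a cluster of their own, genes known chiefly from antigen-presenting cells. Cd74, also listed for class II, shares a cluster with Mir5107 that read 9.40 to 10.97, above the limit too. Of 6 B cell markers 2 lay above the limit, of 8 myeloid and dendritic cell markers 1, of 3 NK cell markers 1, of 3 fibroblast markers 1 and of 3 erythroid markers 0. The limit, 4.892, lies below the array medians, so passing it does not by itself show expression. Eomes read 10.08 to 10.98, Cd79b 9.13 to 9.94 and the class II gene H2-Ab1 6.41 to 8.89. The class II genes H2-Aa and Ciita read 4.64 to 5.25 and 4.90 to 5.38. Zbtb7b, Blk, Siglech and Col1a1 lay between 4.73 and 6.09. In such bulk RNA, fewer cells of a type and less RNA per cell cannot be told apart.

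MHC class I molecules show a cell's own peptides to CD8+ T cells. Proteasomes cut proteins in the cytosol, the TAP transporter carries the fragments into the endoplasmic reticulum, and tapasin and aminopeptidases help fit them to a heavy chain paired with beta-2 microglobulin. Interferon gamma and the transactivator NLRC5 are known to raise these genes together, with the immunoproteasome subunits replacing the constitutive catalytic ones, and T cells themselves carry much class I.

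Several of these genes lie close together. Psmb9, Tap1, Psmb8 and Tap2 follow each other on chromosome 17 (mm10), and Tap1 and Psmb9 run apart from a shared stretch. Promoters were read from RefSeq (GRCm38.p6) as the 250 bases before each start site, for 8 of the 9 genes; Tap2 had no entry. The stretches below are shown because each holds a CRE core (TGACG) and a CCAAT box (CCAAT, or ATTGG on the other strand), letters also known from class I promoters. The order and spacing of the CRE core and the CCAAT box were not part of the search. Capitals mark every match to these 2 motifs, to the interferon response element ISRE (GAAA, 2 bases of any kind, GAAA) and to the NF-kappaB consensus.
Tap1 and Psmb9, chr17:34187331-34187555, plus strand: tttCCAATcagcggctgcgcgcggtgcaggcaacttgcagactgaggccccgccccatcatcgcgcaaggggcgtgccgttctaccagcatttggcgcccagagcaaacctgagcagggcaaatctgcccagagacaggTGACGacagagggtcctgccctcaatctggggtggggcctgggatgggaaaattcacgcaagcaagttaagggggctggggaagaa
B2m, chr2:122147437-122147686, plus strand: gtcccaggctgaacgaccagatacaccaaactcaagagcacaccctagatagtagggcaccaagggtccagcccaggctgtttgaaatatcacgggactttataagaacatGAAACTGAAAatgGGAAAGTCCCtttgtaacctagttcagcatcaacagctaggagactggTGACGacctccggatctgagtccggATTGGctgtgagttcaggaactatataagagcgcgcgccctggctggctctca
H2-K1, chr17:34000348-34000597, minus strand: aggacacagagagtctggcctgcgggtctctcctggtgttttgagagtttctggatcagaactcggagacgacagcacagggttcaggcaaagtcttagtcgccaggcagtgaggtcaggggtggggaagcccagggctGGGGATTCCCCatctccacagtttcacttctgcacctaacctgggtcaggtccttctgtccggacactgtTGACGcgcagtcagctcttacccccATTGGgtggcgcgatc

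The first stretch is the 225 bases that lie before both Tap1 and Psmb9 by their RefSeq start sites, printed in the direction of Tap1. The array's Psmb9 cluster reaches to 34187764 and so covers this stretch. The CCAAT box of this stretch sits 222 to 218 bases before the Tap1 start and 8 to 4 before that of Psmb9. Read toward Tap1, the box lies before the CRE core (86 to 82). In B2m and H2-K1 the CRE core comes first, 78 to 74 and 41 to 37 bases before the start. B2m holds all 4 kinds of match, in the order ISRE, NF-kappaB consensus, CRE core and CCAAT box. In H2-K1 the matches to the NF-kappaB consensus overlap each other, on both strands. H2-K1 has a further start site, whose window, 34000334 to 34000583, is not printed. That window adjoins the array cluster and holds an additional CCAAT box, 6 to 2 bases before its start.

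A CCAAT box together with a CRE core, in any order and at any spacing, was found in 4 of the 8 promoters, those of Tap1, Psmb9, B2m and H2-K1. It was found in 6.12% of 32851 mouse promoters of the same length, with both strands searched. The matches of Tap1 and Psmb9 are the same letters of their shared stretch, so the 4 are not separate finds. Singly, the CCAAT box was in 33.8% and the CRE core in 17.8% of all promoters. The ISRE letters given above, in 2.98% of all promoters, were found among the 8 in B2m, and the NF-kappaB consensus, in 7.25%, in B2m and H2-K1. Variant forms of the ISRE were not searched for, so a promoter without a match, such as that of H2-K1, may still hold one. A PPAR direct repeat (AGGNCA, 1 base of any kind, AGGNCA, in 0.338%) was in 0 of the 8 windows. Such matches describe letters and no binding was measured here.

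The comparison the study was built on asks whether an agonist moves transcripts in CD8+ T cells. None of the 9 genes changed by the test. In a limma fit of the 4 groups, 0 of 9 passed an adjusted p of 0.05 in any of the 6 pairs of treatments or in the test for any difference among the 4, and 0 passed when the set was added as a block. The share of all tested genes that passed was close to 0 as well. It was 0.00788% for the PPARβ agonist against DMSO, against the PPARα agonist and against the PPARγ agonist, 0% for the PPARα agonist against DMSO, the PPARγ agonist against DMSO and the PPARγ against the PPARα agonist, and 0.00788% for any difference. With the set as a block it was 0.0236% for the PPARβ agonist against DMSO, 0.0158% for it against either other agonist, 0% for the other 3 pairs and 0.0158% for any difference. The nearest to the threshold in that last test was Psmb9 (F = 3.74, limma adjusted p = 0.817).

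**Figure D1:**
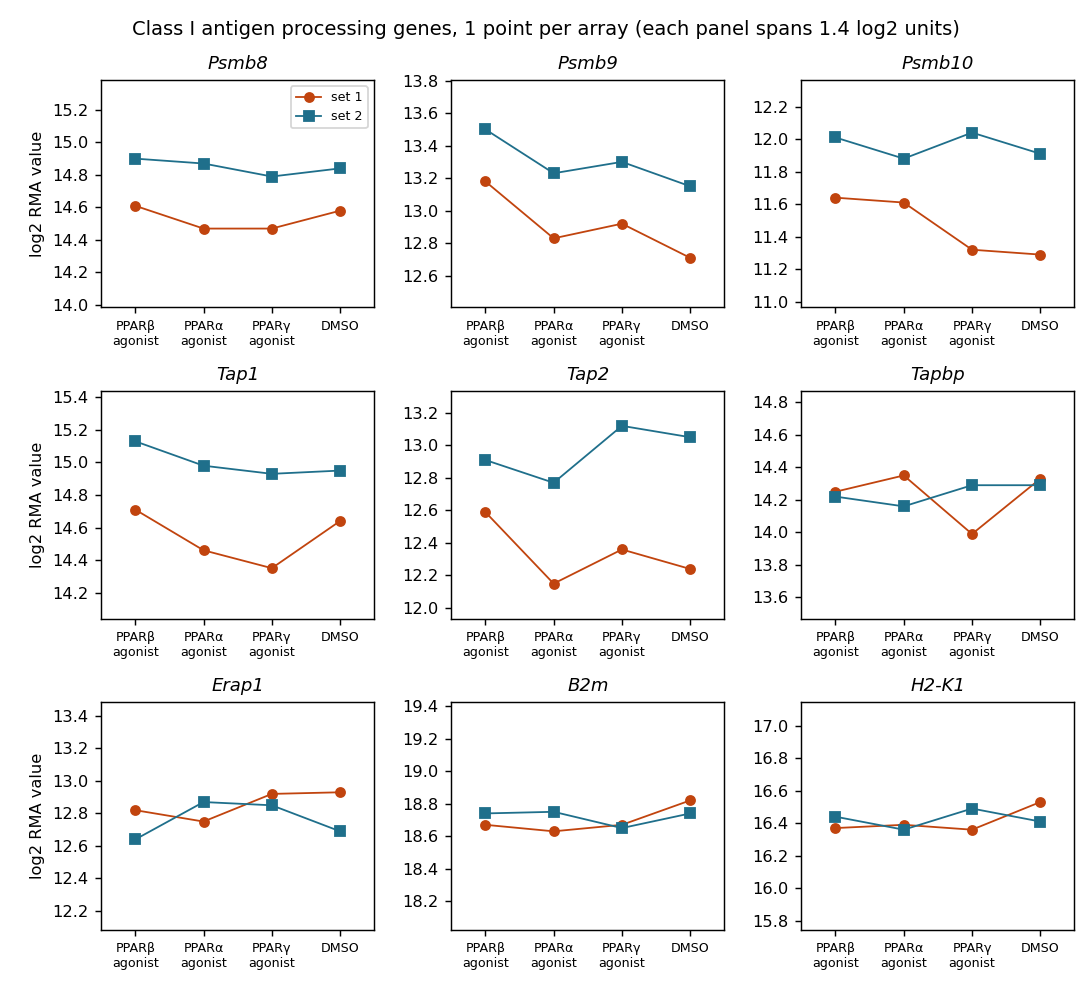
Log2 RMA value (y axis) of the 9 class I antigen processing genes on each of the 8 arrays, by treatment (x axis), with circles for set 1 and squares for set 2 and lines joining the arrays of a set; each panel spans 1.4 log2 units. The squares lie above the circles for Psmb8, Psmb9, Psmb10, Tap1 and Tap2 under every treatment and cross them for Tapbp, Erap1, B2m and H2-K1.

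Peptides are first cut by the proteasome, whose interferon-inducible form carries the subunits of Psmb8, Psmb9 and Psmb10. Psmb9 (chromosome 17, 34181988 to 34187764, minus strand) read 13.18 in set 1 and 13.50 in set 2 under the PPARβ agonist, 12.83 and 13.23 under the PPARα agonist, 12.92 and 13.30 under the PPARγ agonist, and 12.71 and 13.15 under DMSO. In each set the PPARβ array was the highest and the DMSO array the lowest, while the 2 arrays of every treatment stood further apart than neighbouring treatments of a set. The mean was 13.34 ± 0.23 with the PPARβ agonist and 12.93 ± 0.32 with DMSO (SD, n = 2 each), a difference of 0.41 (1.33-fold, SE 0.251, limma adjusted p = 0.9999), with 0.48 in set 1 and 0.35 in set 2.

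With the set as a block the same Psmb9 difference had an SE of 0.129, a 95% interval of 0.11 to 0.72, an unadjusted p of 0.0143 and a limma adjusted p of 0.795. At that unadjusted level, under 0.05, 1 of the 9 genes passed for the PPARβ agonist against DMSO, where 6.13% of all tested genes did. For the PPARα agonist 0 passed, where 4.86% of all did, and for the PPARγ agonist 0, where 5.84% did. Psmb9 also stood 0.32 above the PPARα agonist under the PPARβ agonist (unadjusted p 0.0425 and limma adjusted p 0.842 with the block), 1 of 9 genes where 5.91% of all passed. The Psmb9 and Tap1 clusters overlap at their ends on opposite strands.

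Psmb8 (chromosome 17, 34197721 to 34201454, plus strand) read 14.61 and 14.90 under the PPARβ agonist, 14.47 and 14.87 under the PPARα agonist, 14.47 and 14.79 under the PPARγ agonist, and 14.58 and 14.84 under DMSO, set 1 before set 2 here and below. Every set 2 array lay above every set 1 array, and within a set the treatments spanned little. Psmb10 (chromosome 8, 105935728 to 105938392, minus strand) read 11.64 and 12.01 under the PPARβ agonist, 11.61 and 11.88 under the PPARα agonist, 11.32 and 12.04 under the PPARγ agonist, and 11.29 and 11.91 under DMSO. Its sets did not overlap either, and the order of treatments differed between the sets. The PPARβ agonist stood 0.22 above DMSO for Psmb10 (0.35 and 0.10 in the sets, block adjusted p = 0.95 in limma) and 0.05 above it for Psmb8 (0.03 and 0.06).

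Tap1 and Tap2 encode both chains of the peptide transporter. Tap1 (chromosome 17, 34187553 to 34197225, plus strand) read 14.71 and 15.13 under the PPARβ agonist, 14.46 and 14.98 under the PPARα agonist, 14.35 and 14.93 under the PPARγ agonist, and 14.64 and 14.95 under DMSO. The PPARβ array was the highest and the PPARγ array the lowest in each set. That pair gave the widest treatment gap for Tap1, at 14.92 ± 0.30 with the PPARβ agonist and 14.64 ± 0.41 with the PPARγ agonist (SD, n = 2 each), a difference of 0.28 (1.21-fold, limma adjusted p = 0.76 with the block, 95% interval -0.04 to 0.60).

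Tap2 (chromosome 17, 34203527 to 34216321, plus strand) read 12.59 and 12.91 under the PPARβ agonist, 12.15 and 12.77 under the PPARα agonist, 12.36 and 13.12 under the PPARγ agonist, and 12.24 and 13.05 under DMSO. The PPARα array was the lowest in each set, and the highest was the PPARβ array in set 1 and the PPARγ array in set 2. The PPARα agonist stood 0.19 below DMSO on average (-0.09 and -0.28 in the sets, limma adjusted p = 0.986 with the block, 95% interval -0.57 to 0.19).

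Tapasin, from Tapbp, holds empty class I molecules at the transporter, and the aminopeptidase from Erap1 trims peptides to length. Tapbp (chromosome 17, 33919332 to 33929290, plus strand) read 14.25 and 14.22 under the PPARβ agonist, 14.35 and 14.16 under the PPARα agonist, 13.99 and 14.29 under the PPARγ agonist, and 14.33 and 14.29 under DMSO. The PPARγ array of set 1 was the lowest of the 8, and the sets overlapped. Erap1 (chromosome 13, 74639866 to 74691875, plus strand) read 12.82 and 12.64 under the PPARβ agonist, 12.75 and 12.87 under the PPARα agonist, 12.92 and 12.85 under the PPARγ agonist, and 12.93 and 12.69 under DMSO. Both PPARβ arrays of Erap1 lay below both PPARγ arrays (difference -0.16, limma adjusted p = 0.868 with the block). The sets overlapped for Erap1, and its whole range was 0.28.

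The genes of the class I molecule itself had the smallest ranges of the 9. B2m (chromosome 2, 122147686 to 122153083, plus strand), the gene of its invariant light chain, read 18.67 and 18.74 under the PPARβ agonist, 18.63 and 18.75 under the PPARα agonist, 18.67 and 18.65 under the PPARγ agonist, and 18.82 and 18.74 under DMSO. These values lie near the array maxima of 19.01 to 19.16, and whether readings so high on the scale hide differences was not tested. H2-K1 (chromosome 17, 33996012 to 34000333, minus strand), a classical heavy chain, read 16.37 and 16.44 under the PPARβ agonist, 16.39 and 16.36 under the PPARα agonist, 16.36 and 16.49 under the PPARγ agonist, and 16.53 and 16.41 under DMSO. It spanned 0.17 over the 8 arrays and B2m 0.19, and the sets overlapped for both. Both PPARγ arrays of B2m and both PPARα arrays of H2-K1 lay below both DMSO arrays. The differences were -0.12 for B2m and -0.09 for H2-K1 (limma adjusted p = 0.913 and 0.993 with the block). How often treatments part in this way over all tested genes was not counted, here or for Erap1. H2-K1 has near-identical relatives, so its reading may include theirs and is uncertain.

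NLRC5 is the transactivator that binds class I promoters through their conserved motifs. Its shared cluster with Mir7072 (chromosome 8, 94472763 to 94527272, plus strand) read 10.80 and 10.56 under the PPARβ agonist, 10.59 and 10.49 under the PPARα agonist, 10.58 and 11.21 under the PPARγ agonist, and 10.65 and 10.44 under DMSO. The PPARγ array of set 2 stood above the other 7. Tested apart, the PPARγ agonist gave 10.90 ± 0.44 and DMSO 10.55 ± 0.15 (SD, n = 2 each), a difference of 0.35 that was -0.07 in set 1 and 0.77 in set 2 (limma adjusted p = 0.86 with the block).

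**Figure D2:**
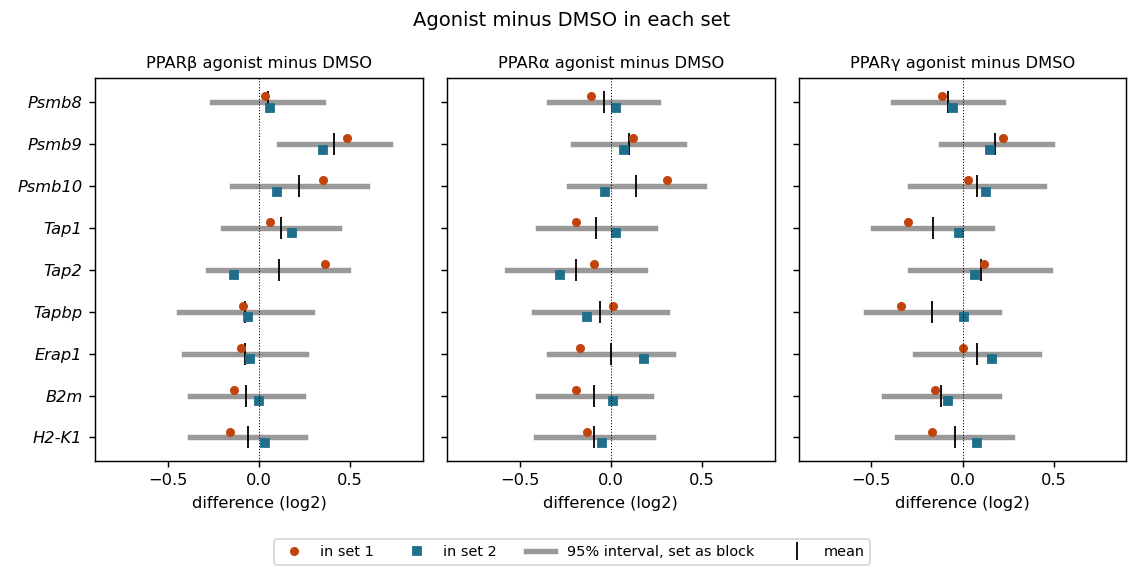
Difference of each agonist from DMSO (x axis, log2) for the 9 genes (y axis), with a circle for set 1, a square for set 2, a tick for their mean and a grey bar for the 95% interval of the fit with the set as a block. The bars cover 0 except that of Psmb9 under the PPARβ agonist, which runs from 0.11 to 0.72 and belongs to a difference with an adjusted p of 0.795.

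Over the 9 genes together, the differences between treatments were small and their signs mixed. Against DMSO they ran from -0.08 to 0.41 with the PPARβ agonist (median 0.05, against -0.01 over all tested genes), from -0.19 to 0.14 with the PPARα agonist (median -0.06, against -0.02) and from -0.17 to 0.18 with the PPARγ agonist (median -0.04, against -0.01). The sets had the same sign for 7, 3 and 6 of the 9 genes in these comparisons, which share their DMSO arrays. How often the sets had the same sign over all tested genes was not counted. Between agonists, which differ in the receptor they are labelled for, the differences ran from -0.08 to 0.32 for PPARβ minus PPARα, from -0.16 to 0.28 for PPARβ minus PPARγ and from -0.11 to 0.28 for PPARγ minus PPARα. The data do not show that the agonists act alike on these genes. With the set as a block the 95% intervals of single genes reached from -0.44 to 0.72 for the PPARβ agonist against DMSO, from -0.57 to 0.51 for the PPARα agonist and from -0.53 to 0.49 for the PPARγ agonist.

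The other genes of the pathway did not pass under the agonists either. Among 9 peptide loading genes and ER chaperones, 10 further class I heavy chains, 2 constitutive catalytic and 11 other 20S proteasome subunits, 3 PA28 genes, 5 cytosolic peptidases, 13 class I regulators and 10 genes of interferon gamma signalling, 0 passed against DMSO with any agonist, with or without the block. Ifng, the gene of interferon gamma, stood 0.93 above DMSO with the PPARβ agonist and 0.96 with the PPARγ agonist, with an SE of 1.94 that covers its spread between sets. The heavy chain relative H2-T24 stood 0.50 above DMSO with the PPARβ agonist (10.09 and 10.15, against 9.72 and 9.53 under DMSO). Cd1d1, which presents lipids, stood 0.63 above DMSO with the PPARγ agonist (8.70 and 9.03, against 8.10 and 8.36 under DMSO) and 0.39 with the PPARα agonist. Irf8, a regulator of interferon target genes, stood at 0.31, -0.22 and -0.36 with the PPARβ, PPARα and PPARγ agonists. All these adjusted p-values in limma were 0.9999 or above.

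Between the sets, 4 of the 9 genes differed. Averaged over the 4 treatments and fitted with treatment as a term, Tap2 was 0.63 lower in set 1, Psmb10 0.49 lower, Tap1 0.46 lower and Psmb9 0.39 lower, and all 4 passed in limma. Psmb8 went the same way by 0.32 and missed the threshold. B2m, H2-K1, Tapbp and Erap1 differed by 0.09 or less.

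The values were as follows. Tap2 averaged 12.34 ± 0.19 in set 1 and 12.96 ± 0.16 in set 2 (SD over the 4 arrays of a set, which hold 4 treatments), a difference of -0.63 (0.648-fold, SE 0.115, limma adjusted p = 0.0127). Psmb10 averaged 11.46 ± 0.18 in set 1 and 11.96 ± 0.08 in set 2, a difference of -0.49 (0.711-fold, SE 0.112, limma adjusted p = 0.0261). Tap1 averaged 14.54 ± 0.17 in set 1 and 15.00 ± 0.09 in set 2, a difference of -0.46 (0.728-fold, SE 0.0975, limma adjusted p = 0.0209). For these 3 genes the highest set 1 array lay below the lowest set 2 array.

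Psmb9 averaged 12.91 ± 0.20 in set 1 and 13.30 ± 0.15 in set 2, a difference of -0.39 (0.765-fold, SE 0.0912, limma adjusted p = 0.0293). Its sets overlapped through the PPARβ array of set 1 at 13.18 and the DMSO array of set 2 at 13.15. Psmb8 averaged 14.53 ± 0.07 in set 1 and 14.85 ± 0.05 in set 2, a difference of -0.32 (0.803-fold, SE 0.0914, limma adjusted p = 0.0549), with no overlap. All 5 of these genes were lower in set 1 under each of the 4 treatments, a pattern that was not counted over all tested genes. The size varied with treatment, from -0.31 with the PPARβ agonist to -0.81 with DMSO for Tap2, and from -0.39 with the PPARα agonist to -0.26 with DMSO for Psmb8.

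The differences of the remaining genes were -0.02 for B2m (95% interval -0.24 to 0.20), -0.01 for H2-K1 (-0.24 to 0.21), -0.01 for Tapbp (-0.27 to 0.25) and 0.09 for Erap1 (-0.15 to 0.33), with limma adjusted p-values of 0.581 to 0.954. The Nlrc5 and Mir7072 cluster differed by -0.01 (limma adjusted p = 0.969). Whether these genes differ from the transporter and immunoproteasome genes in their set difference was not tested.

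In all, 4 of the 9 genes passed, each lower in set 1. Of all tested genes 17.0% passed in either direction, 7.25% lower and 9.74% higher in set 1. Arrays of the sets did not overlap, with set 1 lower, for 4 of the 9 genes (Tap1, Tap2, Psmb8 and Psmb10) and for 11.7% of all tested genes. The median difference was -0.32 over the 9 genes and 0 over all tested genes. The set accounted for 61.0% of the variance of the median gene among the 9, and for 26.4% among all tested genes, from 89.9% for Psmb8 to 0.334% for Tapbp. Over the 8 arrays the median range was 0.43 for the 9 genes and 0.65 for all tested genes. Of the 9, 5 lay below that value of all genes, while Tap2 (0.97), Psmb9 (0.80), Tap1 (0.78) and Psmb10 (0.74) lay above it.

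These calls rest on few arrays. With treatment as a term, an array left out takes the set difference of its whole treatment with it. Either array of a treatment therefore gives the same result between the sets, here and for the related genes below. Leaving out either DMSO array left Tap1 alone past the threshold (limma adjusted p = 0.0492), leaving out either PPARβ array left Tap2 alone (0.0196), and leaving out any PPARα or PPARγ array left 0 of the 9. The differences themselves then ran from -0.73 to -0.56 for Tap2, from -0.57 to -0.42 for Psmb10, from -0.51 to -0.42 for Tap1 and from -0.41 to -0.37 for Psmb9.

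**Figure D3:**
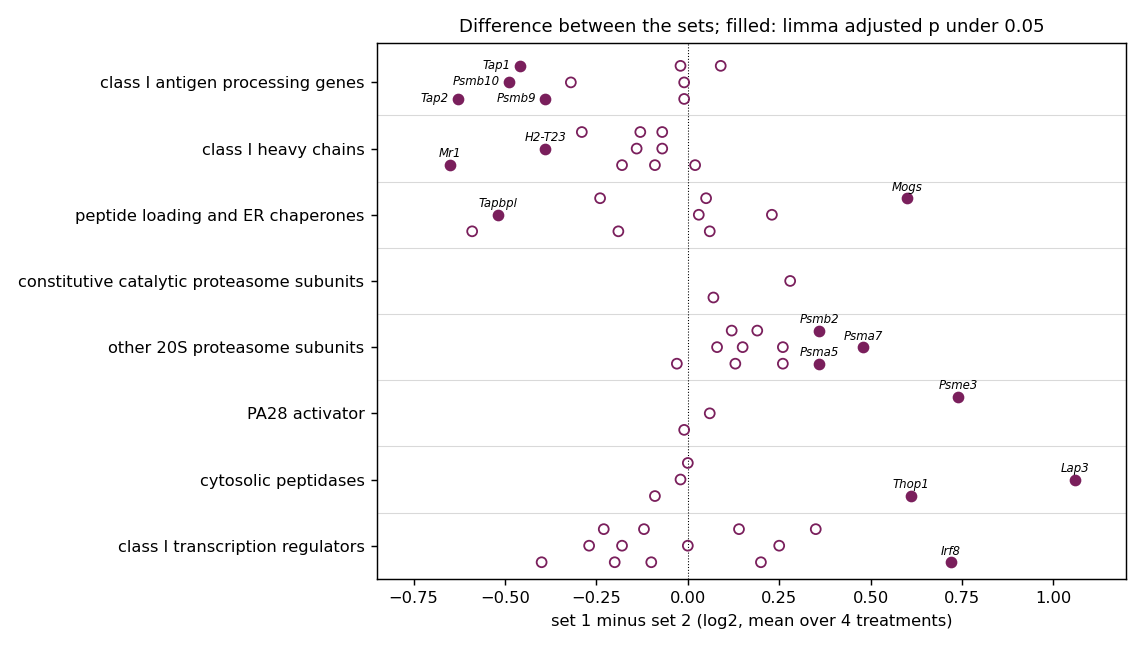
Set 1 minus set 2 (x axis, log2, mean over the 4 treatments) for each tested gene of the class I antigen processing genes and of 7 related lists (y axis; vertical offsets within a list only part the points), filled where limma's adjusted p is under 0.05. Called transporter and immunoproteasome genes lie left of 0 and called standard proteasome, PA28 and peptidase genes right of it.

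The rest of the pathway did not follow a single direction between the sets. Of all tested genes 9.74% passed higher in set 1 and 7.25% lower. Whether any of the short lists here and below held more calls than that was not tested. Of the 11 other 20S subunits, which build both kinds of proteasome, 3 passed higher in set 1 and 0 lower, and 10 lay above 0 (median 0.19). Psma7 averaged 12.11 ± 0.04 in set 1 and 11.63 ± 0.10 in set 2 (difference 0.48, limma adjusted p = 0.0148). Psma5 and Psmb2 were each 0.36 higher in set 1 (limma adjusted p = 0.0469 and 0.0481). Leaving out any 1 array ended the calls of Psma5 and Psmb2 (adjusted p up to 0.164), and leaving out a DMSO, PPARβ or PPARγ array that of Psma7 (up to 0.0556). Of the constitutive catalytic subunits, which the immunoproteasome subunits replace, Psmb6 stood 0.28 higher (limma adjusted p = 0.0764) and Psmb7 0.07.

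Among the proteasome activators, Psme3, whose product caps nuclear proteasomes, averaged 15.46 ± 0.07 in set 1 and 14.72 ± 0.05 in set 2 (difference 0.74, limma adjusted p = 0.00429). The interferon-inducible PA28 genes Psme1 and Psme2 differed by -0.01 and 0.06. Of 5 cytosolic peptidases, which trim or destroy peptides before transport, 2 passed higher in set 1 and 0 lower. Lap3, a leucine aminopeptidase, averaged 12.60 ± 0.11 in set 1 and 11.55 ± 0.13 in set 2 (difference 1.06, limma adjusted p = 0.00247). Thop1, an oligopeptidase, was 0.61 higher in set 1 (limma adjusted p = 0.0219), and Npepps differed by -0.09. Psme3 and Lap3 passed with any array left out, while Thop1 did not without a PPARβ, PPARα or PPARγ array (adjusted p up to 0.0873).

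Of 9 peptide loading genes and ER chaperones, 1 passed in each direction. Tapbpl, a relative of tapasin that edits peptides, averaged 11.70 ± 0.06 in set 1 and 12.22 ± 0.09 in set 2 (difference -0.52, limma adjusted p = 0.0109). Mogs, which trims the first glucose from new glycoproteins, was 0.60 higher in set 1 (limma adjusted p = 0.0164), and Uggt1, which puts a glucose back on misfolded ones, stood 0.59 lower (limma adjusted p = 0.0536). Tapbpl passed with any array left out, and Mogs did not without a PPARα or PPARγ array (adjusted p up to 0.0665).

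Of 10 further class I heavy chains, 2 passed lower in set 1 and 0 higher, and 9 lay below 0 (median -0.14). Mr1, which presents vitamin B metabolites, averaged 9.70 ± 0.18 in set 1 and 10.35 ± 0.16 in set 2 (difference -0.65, limma adjusted p = 0.0142). H2-T23, which encodes the non-classical Qa-1 chain, averaged 14.32 ± 0.12 in set 1 and 14.71 ± 0.18 in set 2 (difference -0.39, limma adjusted p = 0.049), and H2-Q2 differed by -0.29 (limma adjusted p = 0.163). The cluster shared by H2-L and H2-D1, tested apart, differed by -0.39 (limma adjusted p = 0.0627), and that of H2-T22 and H2-T9 by -0.59 (0.0319). H2-T23 did not pass with any 1 array left out (adjusted p up to 0.146), nor Mr1 without a PPARβ, PPARα or DMSO array (up to 0.0538). These chains are close relatives, so probes may read more than 1 of them.

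The transcript of interferon gamma, whose protein is known to raise these genes, differed between the sets the other way from Tap1, Tap2, Psmb9 and Psmb10. Only RNA was measured, and the part of interferon gamma in the set differences of these genes was not tested. Ifng read 12.12, 10.85, 12.80 and 11.54 in set 1 with the PPARβ agonist, the PPARα agonist, the PPARγ agonist and DMSO, and 8.71, 8.18, 8.08 and 7.42 in set 2. It averaged 11.83 ± 0.83 in set 1 and 8.10 ± 0.53 in set 2 (difference 3.73, limma adjusted p = 0.00123). Ifngr1, a chain of its receptor, was lower in set 1 at 13.14 ± 0.17, against 14.15 ± 0.09 in set 2 (limma adjusted p = 0.00329). Both passed with any array left out, with differences of 3.40 to 4.08 for Ifng and -1.10 to -0.94 for Ifngr1.

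**Figure D4:**
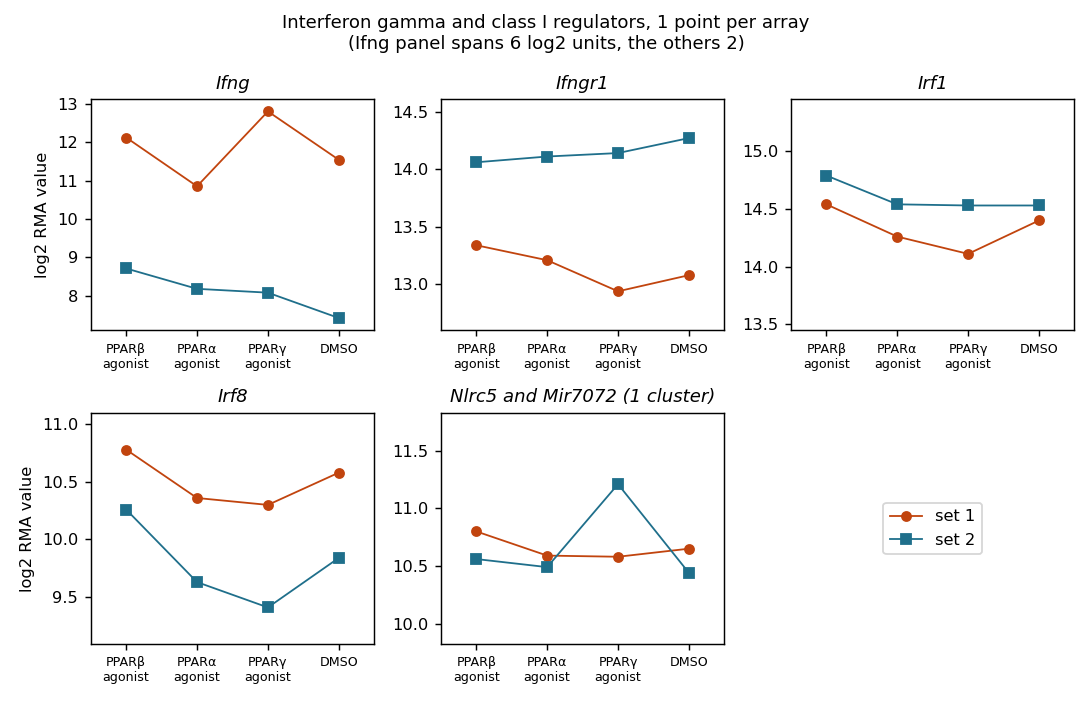
Log2 RMA value (y axis) of Ifng, Ifngr1, Irf1, Irf8 and the cluster shared by Nlrc5 and Mir7072 on each array, by treatment (x axis), with circles for set 1 and squares for set 2; the Ifng panel spans 6 log2 units and the others 2. Ifng and Irf8 are higher and Ifngr1 is lower in set 1, and the PPARγ array of set 2 at 11.21 stands above the other Nlrc5 points.

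Of 13 class I regulators, 1 passed between the sets. Irf8 averaged 10.51 ± 0.22 in set 1 and 9.78 ± 0.36 in set 2 (difference 0.72, limma adjusted p = 0.00586), and passed with any array left out. Nfya, a subunit of the CCAAT-binding factor, stood 0.35 higher in set 1 (limma adjusted p = 0.0555), and Irf1 differed by -0.27 (limma adjusted p = 0.0993). The 10 genes of interferon gamma signalling held 1 call in each direction, Ifng and Ifngr1, and a median of -0.19.

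Single markers listed for other cells also moved with the set. Cd4 was 0.82 higher in set 1 (8.81 ± 0.36, against 7.99 ± 0.43 in set 2, limma adjusted p = 0.016). The other CD4 marker, Zbtb7b, differed by -0.05 (limma adjusted p = 0.802), and the 2 averaged 6.81 to 7.52 in set 1 and 6.66 to 7.24 in set 2. Eomes, listed for NK cells and also made by activated CD8+ T cells, was 0.45 higher (limma adjusted p = 0.033). The other NK markers, Ncr1 and Klrb1c, lay below the limit of the tested genes. The class II gene H2-Ab1 was lower in set 1 (6.78 ± 0.48, against 8.14 ± 0.54 in set 2; limma adjusted p = 0.00195), 1 of 3 class II genes tested, while the cluster of Cd74 and Mir5107, tested apart, was 1.04 higher (limma adjusted p = 0.00262). With any array left out H2-Ab1 passed, while Cd4 did not without a PPARγ array (adjusted p up to 0.0547), nor Eomes without a PPARβ, PPARγ or DMSO array (up to 0.121). Mean levels of the 6 B cell markers were 5.03 to 5.37 in set 1 and 4.98 to 5.20 in set 2, of the 8 myeloid and dendritic markers 4.01 to 4.12 and 3.94 to 4.42, and of 5 CD8 T cell markers 16.13 to 16.29 and 16.30 to 16.35. The part of these markers in the differences of the class I genes was not tested.

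Within a set, the genes kept company with each other to varying degrees. With each array taken minus the mean of its set, the mean of the 9 genes spanned -0.07 to 0.10 over the 8 arrays. Across these arrays, which share their set means and their DMSO and agonist treatments, Tap1 followed that mean most closely (Pearson r = 0.82), then Psmb8 (0.67), Tap2 and Psmb9 (0.64 each) and Psmb10 (0.58). Tapbp (0.41), H2-K1 (0.27), B2m (0.02) and Erap1 (-0.21) followed it less, and each gene is itself part of the mean. Of all other tested genes, the 5 most like the mean by the same measure were Zbtb10 (0.958), Max (0.955), Mecr (0.945), Cldnd2 (0.945) and Ifit1 (0.944). Ifit1, an interferon-induced gene, read 7.92 and 6.08 under the PPARβ agonist, 6.08 and 5.70 under the PPARα agonist, 5.43 and 6.40 under the PPARγ agonist, and 6.94 and 6.12 under DMSO. These 5 were picked as the closest of 12696 genes over 8 arrays, and their r is given as a description.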

How the data were processed

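The authors deposited log2 values per transcript cluster, 1 column per array, and a linear intensity column whose log2 equals them to 1.5e-06 and which was not tested. Per the submitters' processing notes the values are RMA values, and per the labels they come from Expression Console at gene level. Per the file headers the annotation is on mm10. The deposited value matrix differed from the workbook by at most 5e-07. Of 22206 clusters, 21371 name 1 gene, and 20395 of these were matched by Entrez ID to RefSeq (GRCm38.p6), which updated 899 symbols. The highest cluster per gene was kept (21160 genes), and the 12696 genes averaging 4.892 or more on the log2 scale, which cuts at the 40th percentile, were tested. The scale behind maxima of 19.01 to 19.16 is not given in the sources used here. Folds assume plain log2 units.

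The 4 groups were fitted with limma 3.58.1 in R 4.3.3 (4 residual and 3.754 prior degrees of freedom), without and with the set as a block (3 and 4.264), and the sets with treatment as a term. Tests were two-sided, adjusted by Benjamini-Hochberg over all 12696 genes. The number of arrays limits the precision. The set comes from the shared title prefix, and the set differences of any 2 groups correlated at 0.496 to 0.550 over genes in all 6 pairs of groups; prefixes are shared labels, not stated pairs. The scripts were tested on simulated data. Tables and plots were made with pandas 2.3.3 and matplotlib 3.10.9 under Python 3.11.15.

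All 10 listed names are reported. Of each related list, the 3 tested genes with the largest set difference and the 2 with the largest change under each agonist could be named, and 5 genes by likeness; Irf1, the shared clusters and the marker genes were added to these after their values were seen. A gene that this rule would name is not reported here. Members and lists were chosen with earlier results of these data known. Alternatives were other filters, scalings and variance models, the value matrix, shared clusters and each array left out; leaving out arrays together with the block was added after seeing the data.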

Additional observations from a re-analysis of the deposited data

Results flagged for a closer look

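Among the 20 sets of 4 arrays examined (9 genes and the Nlrc5 cluster in each set), 2 held an array far from its neighbours, and chance marks about 1 in 20. The 4 arrays of a set hold different treatments, so they are not replicates. In set 2, B2m read lowest on the PPARγ array, at 18.65, with the gap to the next array taking 0.869 of the set's range, although that range is small. In set 2, the cluster of Nlrc5 and Mir7072 read highest on the PPARγ array, at 11.21, with the gap taking 0.847 of the range. Set 1 showed no such PPARγ value in either, at 18.67 for B2m and 10.58 for the Nlrc5 cluster.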

How the results depend on the processing

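Between treatments, 0 of the 9 genes passed in any of 26 settings, with or without the replicate block (the set). Of 1557 differences of single genes and comparisons under other settings, 1520 kept their side of the threshold, 33 lost it, 4 gained it and 0 reversed while called. Most of the 1557 were treatment differences, which passed in 0 settings, so the 1520 does not measure how stable the calls were. All 33 losses were of the 4 genes called between the sets, and all 4 gains were of Psmb8 between the sets. Leaving out each array in turn without the block, the mean over the 9 genes ran from -0.04 to 0.18 for the PPARβ agonist minus DMSO (0.07 with all arrays), from -0.16 to 0.09 for the PPARα agonist (-0.03), from -0.19 to 0.16 for the PPARγ agonist (-0.01), from -0.02 to 0.23 for PPARβ minus PPARα (0.10), from -0.09 to 0.26 for PPARβ minus PPARγ (0.08) and from -0.15 to 0.19 for PPARγ minus PPARα (0.02), since each such fit sets unequal numbers of set 1 and set 2 arrays against each other. With the replicate block it was 0.03 without the PPARβ array of set 1 and 0.11 without that of set 2, for the PPARβ agonist minus DMSO. The PPARα mean was -0.06 with array medians subtracted and -0.01 after quantile normalization, and the cause was not tested.

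Between the sets, 4 of 9 genes passed, against 1 with no filter, which tests more genes, and 0 to 1 with any array left out; other settings gave 3 to 5. All genes called numbered 2156, and 1053 to 1328 with an array left out, 1228 with no filter and 3238 with trend and robust variances. Psmb8 passed without the treatment term (limma adjusted p = 0.0242). It also passed with the 60th percentile filter (0.0213), with quantile normalization (0.0354) and with trend and robust variances (9.90e-04). Psmb9 did not pass without the treatment term (0.052), with the 20th percentile filter (0.0571) or with no filter (0.0828). Tap1 (0.0572) and Psmb10 (0.0636) did not pass with no filter. With 2 arrays a group, an arm left with 1 array is assumed to vary like the others.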
